A study of Arabidopsis thaliana with 12 samples.

Results

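Nitrate taken up by a plant is reduced to nitrite by nitrate reductase in the cytosol and then to ammonium by nitrite reductase in the plastid. Glutamine synthetase joins the ammonium to glutamate, the plastid isoform mostly for ammonium made in the chloroplast and in photorespiration, the cytosolic isoforms mostly for nitrogen that is moved between organs or recovered from protein. In leaves these steps depend on light, sugar and nitrate supply, and the nitrate reductase genes also follow the daily cycle.

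The genes described here are 10 genes of this route in Arabidopsis thaliana, out of 21461 probe sets measured. They are the nitrate transporter and sensor NRT1.1 (AT1G12110_at), the vacuolar nitrate/proton exchanger CLC-A (AT5G40890_at), the nitrate reductases NIA1 (AT1G77760_at) and NIA2 (AT1G37130_at), the nitrite reductase NIR1 (AT2G15620_at), the cytosolic glutamine synthetases GLN1;1 (AT5G37600_at), GLN1;3 (AT3G17820_at) and GLN1;4 (AT5G16570_at), the plastid glutamine synthetase GLN2 (AT5G35630_at) and the asparagine synthetase ASN1 (AT3G47340_at), which makes asparagine for transport and is known as a gene induced in darkness. All 10 of the 10 listed probe sets were measured. They were chosen by name with their drought minus control differences in these same arrays known, so those differences are given as descriptions, with no test.

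Young leaves of the Columbia ecotype were measured on 12 ATH1 arrays in 6 groups of 2, each array carrying RNA pooled from 5 plants. All plants grew in peat pellets with 10 h of light at 22 °C. For moderate drought, watering stopped 30 days after sowing and the soil was kept at 30% of field capacity, with leaves taken on day 1 and on day 10; for progressive drought, watering stopped 35 days after sowing and leaves were harvested when wilting first appeared. A separate well-watered control group was grown for each of these 3 samplings. The deposited values are log2 expression levels, and the arrays were normalised as 3 separate sets of 4, so a level is compared only with levels of the same gene in the same set. Differences are drought minus own control in log2 units, ± the standard error (SE) of a limma fit to all 12 arrays, with n = 2 arrays per group, a number that limits the precision of each. The fit gives 1 SE per gene, shared by the 3 comparisons, so it does not measure the spread within a single comparison.

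Replicate arrays correlated across probe sets at 0.964 to 0.997, and the root mean square SD between replicates ran from 0.123 log2 units in the day 1 control to 0.369 in progressive drought. The mesophyll markers CA1 and GAPA, the measured ones of 6 listed, averaged 11.2 to 13.2 on every array, while 6 of 7 measured root markers lay below the array median in each comparison. Within the progressive set the clock genes split the replicates: 3 dawn-phased genes averaged 3.77 and 5.58 on control arrays 1 and 2 and 7.97 and 4.82 on drought arrays 1 and 2. The 5 dusk-phased genes averaged 7.74 and 5.66 on the controls and 5.38 and 7.85 under drought, so control array 1 resembled drought array 2 and control array 2 resembled drought array 1. On day 10 the dusk-phased mean was 7.12 and 8.19 on the drought arrays against 7.95 and 7.91 on the controls, and on day 1 it stayed between 8.61 and 8.67. The part of this clock difference in the results below was not tested.

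**Figure D1:**
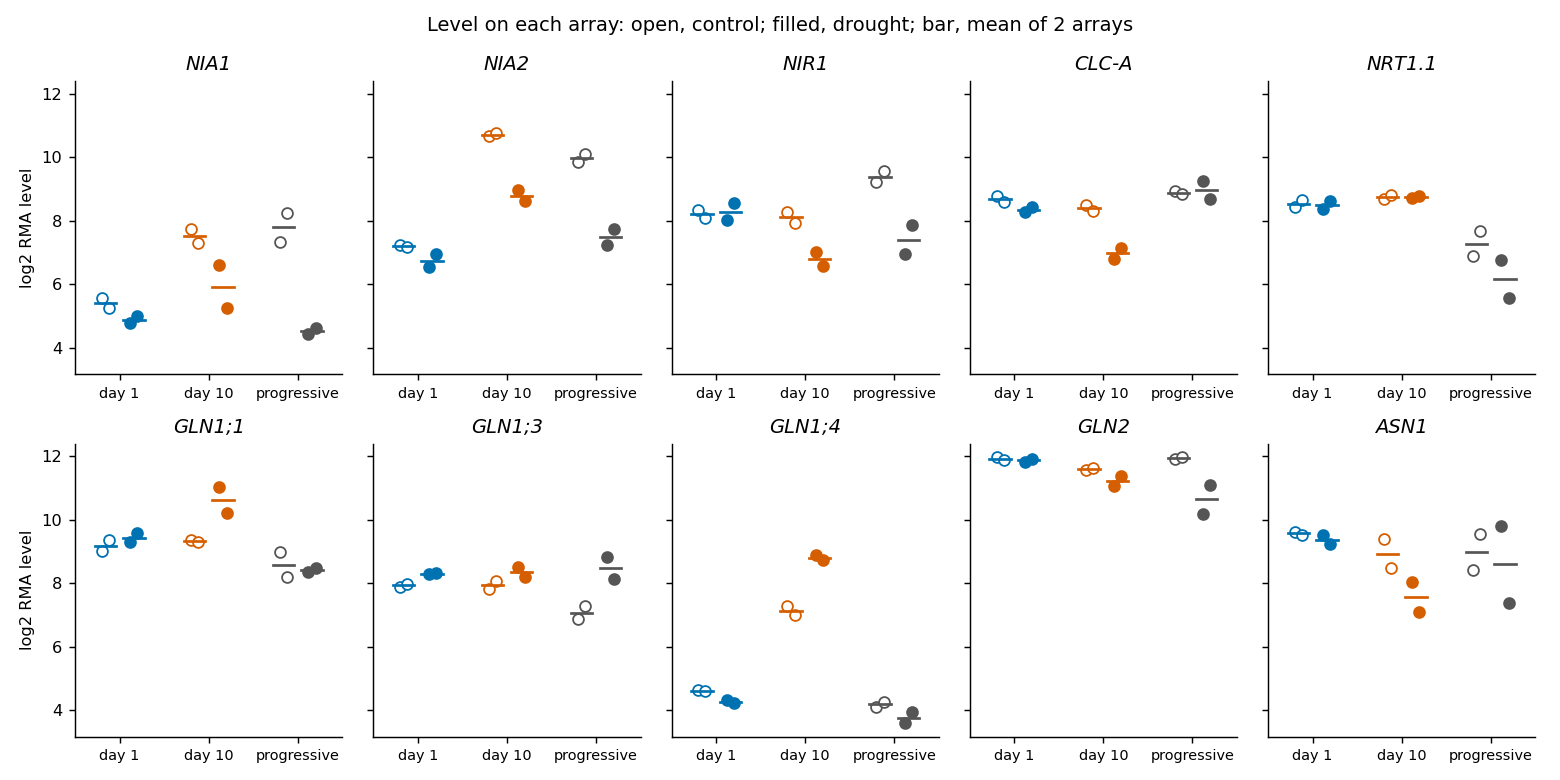
Level of each of the 10 genes on each of the 12 arrays, in log2 RMA units on the vertical axis, by comparison on the horizontal axis; open circles are control arrays, filled circles drought arrays and bars the mean of the 2 arrays. NIA1, NIA2 and NIR1 sit lower on both drought arrays than on both controls on day 10 and at wilting, and GLN1;4 sits higher under drought on day 10 alone.

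The nitrate reductases showed the largest declines among the 10 genes in all 3 comparisons, with the larger value at wilting. NIA2, which provides most of the nitrate reductase activity of Arabidopsis leaves, stood at 10.67 and 10.75 on the day 10 control arrays and at 8.96 and 8.63 on the drought arrays, a difference of −1.91 ± 0.20, or 3.77-fold lower. In the progressive comparison its levels were 9.84 and 10.11 in controls and 7.25 and 7.72 in drought, a difference of −2.49 ± 0.20, or 5.62-fold lower. In both comparisons the lower control array was more than 1 log2 unit above the higher drought array. On day 1 NIA2 measured 7.23 and 7.19 in controls and 6.53 and 6.94 in drought, which is −0.48 ± 0.20, with the second drought array close to the controls.

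NIA1, the other nitrate reductase gene, had levels of 7.32 and 8.25 in the progressive controls and 4.43 and 4.63 in progressive drought, a difference of −3.26 ± 0.43, or 9.56-fold lower. The drought levels were below the medians of those arrays. On day 10 the controls stood at 7.75 and 7.29 and the drought arrays at 6.61 and 5.24, a difference of −1.60 ± 0.43. Drought array 2 was far lower than drought array 1, and without it the day 10 difference was −0.92, against −2.28 without drought array 1. On day 1 the NIA1 levels were 5.56 and 5.26 in controls and 4.77 and 5.00 in drought, a difference of −0.52 ± 0.43. The day 1 SDs were 0.213 in controls and 0.161 in drought. The shared SE also takes in wider pairs, such as day 10 drought with an SD of 0.965.

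NIR1, the single nitrite reductase gene, differed from the nitrate reductases on day 1, when its control levels of 8.32 and 8.08 overlapped the drought levels of 8.01 and 8.55, with a difference of 0.08 ± 0.31. On day 10 it measured 8.28 and 7.93 in controls and 7.01 and 6.57 in drought, a difference of −1.31 ± 0.31. At wilting the levels were 9.22 and 9.56 in controls and 6.95 and 7.86 in drought, a difference of −1.99 ± 0.31, or 3.97-fold lower. Both later comparisons had all drought arrays below all controls, and the 2 progressive drought arrays lay farther apart than any other replicate pair of NIR1.

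The nitrate carriers moved apart from each other. CLC-A, which loads nitrate into the vacuole, stood at 8.49 and 8.29 in the day 10 controls and at 6.78 and 7.16 in day 10 drought, a difference of −1.43 ± 0.19, or 2.69-fold lower. In the progressive comparison its controls of 8.94 and 8.84 fell between the drought values of 9.24 and 8.69, and the difference was 0.08 ± 0.19. On day 1 the drought arrays, at 8.27 and 8.42, were below the controls, at 8.79 and 8.59, by 0.35 ± 0.19. CLC-A was thus low on day 10 and not at wilting, the opposite order to NRT1.1.

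NRT1.1, which carries nitrate across the plasma membrane and senses it, was level in moderate drought. Its values were 8.42 and 8.64 in controls and 8.38 and 8.61 in drought on day 1, and 8.68 and 8.82 in controls and 8.71 and 8.79 in drought on day 10, differences of −0.03 ± 0.36 and 0.00086 ± 0.36. At wilting the controls stood at 6.88 and 7.68 and the drought arrays at 6.76 and 5.58, a difference of −1.11 ± 0.36. The progressive drought arrays were both lower, but control array 1 and drought array 1 nearly touched, and the difference ran from −1.70 to −0.52 as single arrays were left out. The pair of arrays high in dusk-phased genes, control 1 and drought 2, had 6.88 and 5.58, and the pair high in dawn-phased genes had 7.68 and 6.76.

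The glutamine synthetases did not share a direction. GLN1;4, a cytosolic isoform, showed the largest day 10 increase of the 10 genes, with 7.28 and 6.99 in controls and 8.88 and 8.73 in drought, a difference of 1.67 ± 0.15, or 3.19-fold higher. On day 1 it measured 4.63 and 4.61 in controls and 4.34 and 4.22 in drought, and at wilting 4.12 and 4.27 in controls and 3.59 and 3.95 in drought, differences of −0.34 ± 0.15 and −0.43 ± 0.15. The drought arrays were above both controls on day 10 and below both in the other comparisons. All of the day 1 and progressive levels were below the medians of their arrays.

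GLN1;1, also cytosolic, was higher under drought in the same comparison as GLN1;4, from 9.35 and 9.29 in the day 10 controls to 11.04 and 10.21 in drought, a difference of 1.303 ± 0.30, or 2.47-fold higher. Both drought arrays were above the controls, and leaving out drought array 1 or 2 gave 0.88 or 1.72. Its day 1 levels, 9.01 and 9.35 in controls and 9.31 and 9.57 in drought, overlapped, with a difference of 0.26 ± 0.30. So did the progressive levels, 8.97 and 8.21 in controls and 8.35 and 8.49 in drought, with a difference of −0.17 ± 0.30.

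GLN1;3, a cytosolic isoform of high capacity, had its largest difference at wilting, not on day 10. The progressive controls measured 6.89 and 7.27 and the drought arrays 8.84 and 8.13, a difference of 1.405 ± 0.23, or 2.65-fold higher. The smaller differences of moderate drought were 0.37 ± 0.23 on day 1, from 7.89 and 7.99 to 8.31 and 8.31, and 0.40 ± 0.23 on day 10, from 7.83 and 8.09 to 8.50 and 8.22. Drought arrays were above controls in all 3 comparisons, which held for GLN1;3 alone among the 10 genes.

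GLN2, the plastid isoform, went the other way at wilting, with 11.91 and 11.97 in controls and 10.19 and 11.11 in drought, a difference of −1.29 ± 0.25, or 2.44-fold lower. The 2 drought arrays lay well apart, and the difference was −1.75 without drought array 2 and −0.83 without drought array 1. On day 10 the levels were 11.57 and 11.62 in controls and 11.08 and 11.39 in drought, a difference of −0.36 ± 0.25, and on day 1 the difference was −0.06 ± 0.25. The mesophyll marker CA1, a chloroplast carbonic anhydrase, fell by 2.48 ± 0.17 at wilting and GAPA, a Calvin cycle enzyme, fell by 0.76 ± 0.17 (limma adjusted p = 2.12e-05 and 0.0096). In RNA from whole leaves, fewer cells of a type and less RNA per cell cannot be told apart.

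ASN1 was the least steady of the 10. On day 10 its controls measured 9.40 and 8.47 and its drought arrays 8.06 and 7.09, a difference of −1.36 ± 0.72. That day 10 value was −0.88 without drought array 2 and −0.90 without control array 1, and reached −1.84 without drought array 1. The progressive controls measured 8.42 and 9.56 and the drought arrays 9.81 and 7.38, so that drought held both the highest and the lowest level, and the difference of −0.40 ± 0.72 ran from −1.61 to 0.82 as single arrays were left out. ASN1 stood at 9.56 and 9.81 on the arrays high in dawn-phased genes and at 8.42 and 7.38 on those high in dusk-phased genes. Levels by clock pair are given for NRT1.1 and ASN1 only, and a link to the clock was not tested. On day 1 the difference was −0.20 ± 0.72, where the SDs of that day alone were 0.07 in controls and 0.19 in drought.

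**Figure D2:**
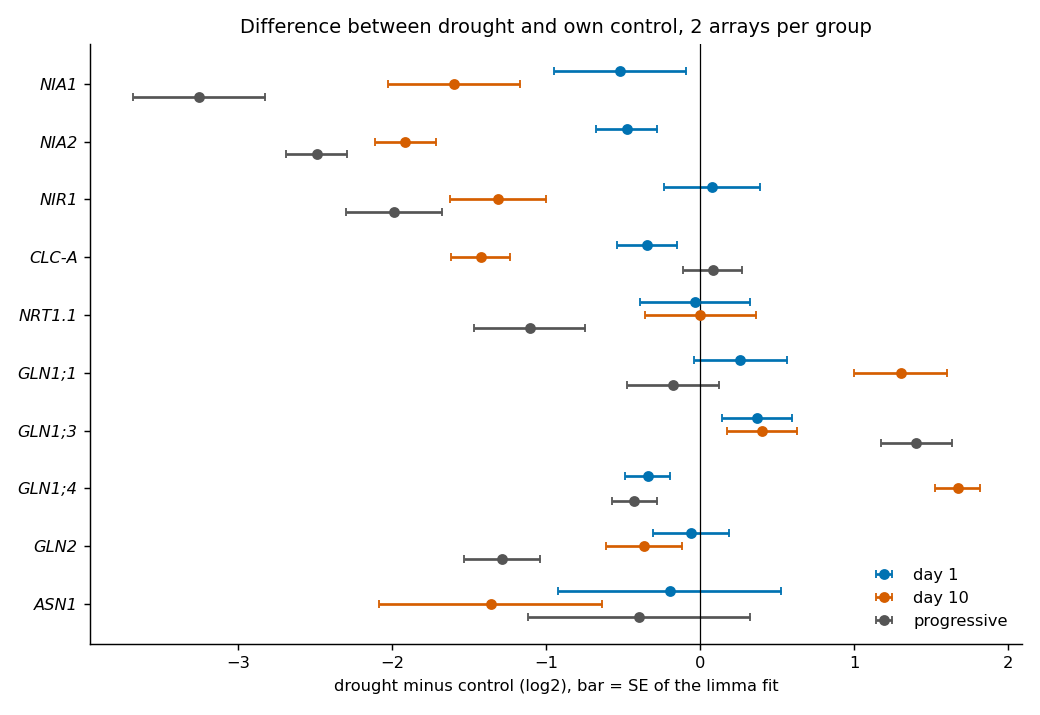
Drought minus control for each of the 10 genes in log2 units on the horizontal axis, with 1 point per comparison and bars showing the SE of the limma fit (n = 2 arrays per group). Within each comparison the nitrate reductases lie farthest to the left, from −0.48 to −3.26 over the 3 comparisons. GLN1;4 on day 10, at 1.67, lies farthest to the right of all points.

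Over the 10 genes the median difference was −0.13 on day 1, −0.84 on day 10 and −0.77 at wilting, against 0.0118, 0.0169 and 0.00376 over all probe sets. Differences were below 0 for 7, 6 and 8 of the genes. Drought and control arrays did not overlap for 6 of 10 on day 1, 9 of 10 on day 10 and 7 of 10 at wilting, where 49.4%, 44.6% and 54.6% of all probe sets did not overlap. At a Benjamini-Hochberg adjusted p under 0.05 over all probe sets, none of the 10 passed on day 1, when 0.0186% of all probe sets passed. On day 10, when 0.107% of probe sets passed, GLN1;4 passed as a rise (0.0466% of all) and NIA2 and CLC-A as falls (0.0606% of all). At wilting 27% of probe sets passed, and the genes past the threshold were GLN1;3 upwards (12.5% of all) and NIA1, NIA2, NIR1 and GLN2 downwards (14.5% of all). The genes were selected on these contrasts, so nothing is read from these counts. The day 10 count of 3 fell to 0 when either day 10 control array or drought array 1 was left out, and to 1 without drought array 2 or without either day 1 control array. Fitted on the 4 arrays of a comparison alone, 0 of all probe sets passed on day 10, the 10 genes included. At wilting 1575 of the 21461 probe sets passed in that fit, against 5797 in the main fit. NIA1 and NIA2 were among them, and NIR1, GLN1;3 and GLN2 were not.

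**Figure D3:**
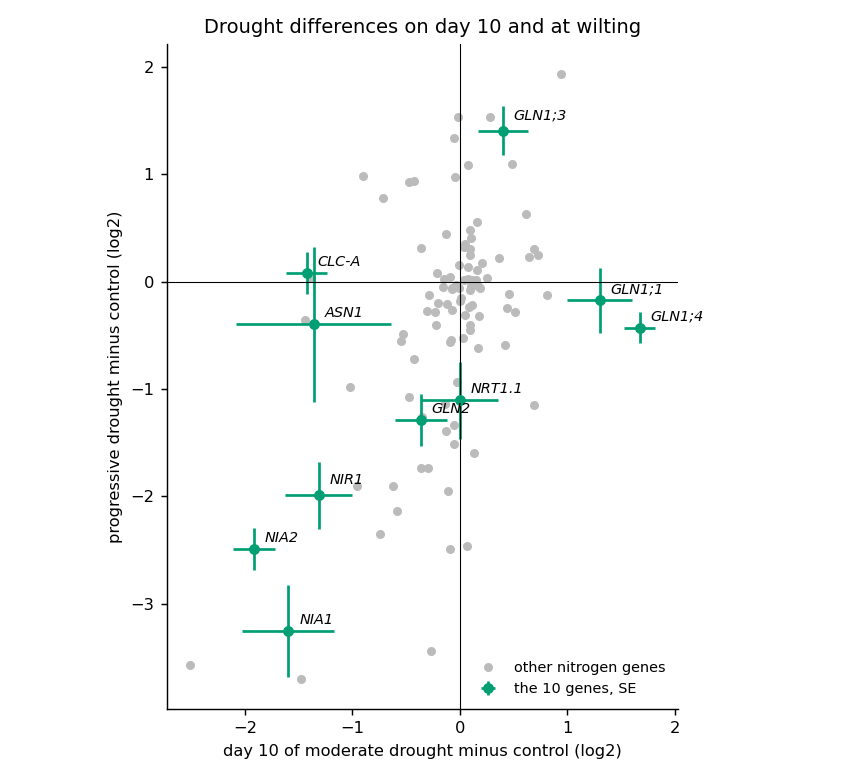
Drought minus control on day 10 (horizontal axis) against that at wilting (vertical axis), both in log2 units; green points with SE bars are the 10 genes and grey points the 98 other nitrogen genes. NIA1, NIA2 and NIR1 lie low on both axes, CLC-A and GLN1;4 are displaced along the day 10 axis, and NRT1.1, GLN2 and GLN1;3 along the axis of wilting.

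Deviations of the 12 arrays from the mean of their own set were compared between genes, as a description over arrays that share the treatment. NIA1, NIA2 and NIR1 moved together, with Pearson r of 0.939 to 0.958 for their pairs. GLN2 followed NIR1 at 0.89 and NIA2 at 0.849, and GLN1;3 ran opposite to GLN2 at −0.945. CLC-A ran opposite to GLN1;4 at −0.86 and to GLN1;1 at −0.856, while GLN1;1 and GLN1;4 had 0.763. Across the whole array, the named probe sets most like NIA2 were FLA13 (0.976), BT5 (0.966), MSRB6 (0.964), TPI (0.961) and ARFA1D (0.960). For NRT1.1 they were LYC (0.983), FOLK (0.979), GSR2 (0.977), SCR (0.968) and RPN8A (0.967), of which GSR2 is the cytosolic glutamine synthetase GLN1;2. The closest to GLN1;4 were AUG5 (0.950), RFO1 (0.947), EDA10 (0.945), NPH3 (0.929) and CRK3 (0.922), and those closest to ASN1 reached at most 0.908, for BDG1, followed by BXL1 (0.894), SYP71 (0.892), TRA2 (0.867) and VIK (0.862).

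The remaining genes of nitrogen uptake, signalling and assimilation were read from 7 lists, of which 98 of 108 entries were measured and none is among the 10 genes. None of the 98 passed the limma test on day 1, where 16 of the 98 had an unadjusted p under 0.05, against 1865 of the 21461 probe sets. A fit with array weights and a fit to the 4 day 1 arrays alone each called 1. On day 10, 1 of the 98 passed, or 1.02% against 0.107% of all probe sets. There 21 of the 98 had an unadjusted limma p under 0.05, against 2238 of the 21461 probe sets. At wilting 8 rose, 27 fell and 63 did not pass, or 35.7% of the list genes against the 27% of all probe sets given above. The list median was −0.118 at wilting, −0.0148 on day 10 and 0.0267 on day 1. The lists were chosen with earlier results of these data known, so their shares are descriptions and not an independent test of nitrogen genes. Each called gene below is given with its limma difference at wilting and its Benjamini-Hochberg adjusted p over all probe sets.

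**Figure D4:**
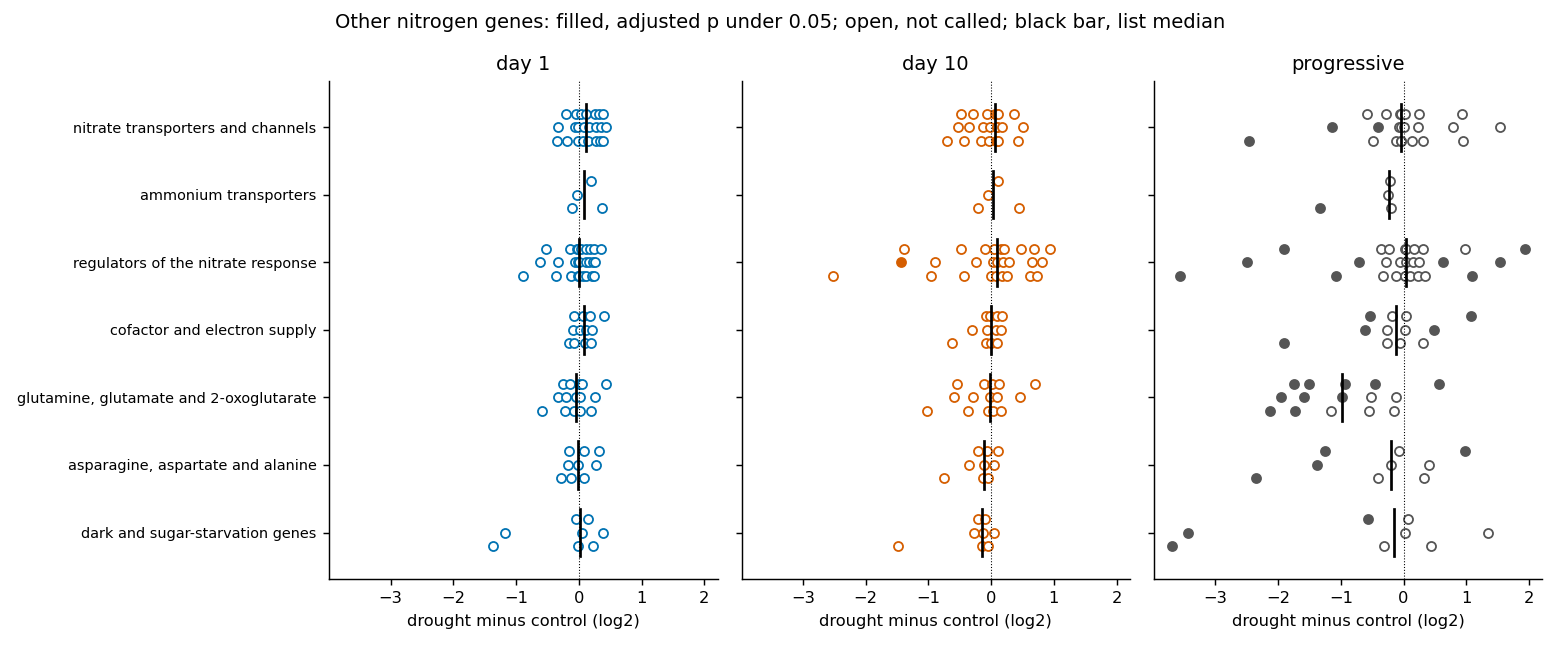
Drought minus control in log2 units for the 98 other nitrogen genes, by list (rows) and comparison (panels); filled circles passed an adjusted p under 0.05, open circles did not, and black bars are list medians. Filled circles are absent on day 1, number 1 on day 10 and 35 at wilting, and the glutamine and glutamate list has its median at −0.98 at wilting.

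Among 23 transporters and channels for nitrate other than NRT1.1 and CLC-A, 3 fell at wilting and none rose, with a list median of −0.0365. That is 13% of the list, a smaller share than the 27% of all probe sets. NRT1.11, which moves nitrate into the phloem for delivery to young leaves, fell by 2.46 ± 0.43 (limma adjusted p = 0.00257), from 8.56 and 9.13 in controls to 7.14 and 5.63 in drought. NRT1.12, its close relative, fell by 1.14 ± 0.36 (adjusted p = 0.0457), a call that ended when any of 11 of the 12 arrays was left out (adjusted p up to 0.158). The NRT1.12 value was −0.45 without control array 1 and −1.84 without control array 2. CLC-E, a chloroplast member of the CLC family, fell by 0.41 ± 0.11 (adjusted p = 0.0223; up to 0.0877 with 1 array left out). Of 4 ammonium transporters 1 was called at wilting, or 25%, against 27% of all probe sets. AMT1;1, a high-affinity carrier, fell by 1.33 ± 0.22 (adjusted p = 0.00218). Its values in moderate drought were −0.02 on day 1 and −0.05 on day 10, neither of which passed.

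Of 27 regulators of the nitrate response, 4 rose and 5 fell at wilting, with a median of 0.0311. Together they make up 33.3% of the list, near the 27% of all probe sets. NLP8, a relative of the factor that turns on nitrate-responsive genes, rose by 1.93 ± 0.19 (limma adjusted p = 0.000125) and CIPK8, a kinase of the early nitrate response, by 1.53 ± 0.23 (adjusted p = 0.00119). CIPK23, the kinase that phosphorylates NRT1.1, rose by 0.63 ± 0.19 (adjusted p = 0.038), a call that ended without any of 7 arrays (adjusted p up to 0.196), and its value was 0.36 without drought array 1. LBD38, a repressor of nitrate-responsive genes that include the nitrate reductases, fell 3.73-fold (log2 SE 0.21, adjusted p = 0.000242), in the same direction as NIA1 and NIA2. BT2, a scaffold protein that lowers nitrate uptake, fell by 3.57 ± 0.64 at wilting (adjusted p = 0.0031), while its day 10 value of −2.51 did not pass (adjusted p = 0.196). Its progressive controls differed, at 9.02 and 6.58, and its drought arrays stood at 4.19 and 4.27, so that without control array 1 the BT2 value was −2.35. AT3G60320 fell by 2.49 ± 0.16 (adjusted p = 1.37e-05). AT1G25550 was the single list gene called on day 10, by −1.44 ± 0.19 (adjusted p = 0.0429). That call ended when any of the 8 day 1 and day 10 arrays, controls included, was left out. Its value ran from −1.68 to −1.20 as single arrays were left out.

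The cofactor list covers molybdenum cofactor, which nitrate reductase carries, siroheme, which nitrite reductase carries, and electron supply to the plastid. Of its 12 genes 2 rose and 3 fell at wilting, or 41.7% against 27% of all probe sets, with a median of −0.122. Genes of the first step of molybdenum cofactor synthesis were higher: CNX3 rose by 1.08 ± 0.18 (limma adjusted p = 0.00201) and CNX2 by 0.48 ± 0.11 (adjusted p = 0.0127; up to 0.0846 with 1 array left out). AT2G43760 of the same list fell by 0.54 ± 0.14 (adjusted p = 0.0221), and its value was −0.33 without drought array 2 (adjusted p up to 0.128 over the arrays left out). The siroheme genes were lower: UPM1, the methyltransferase that starts the branch, fell by 1.902 ± 0.20 (adjusted p = 0.000176), and SIRB, the ferrochelatase that ends it, fell by 0.62 ± 0.08 (adjusted p = 0.000638). UPM1 and SIRB thus fell in the comparison in which NIR1 was lowest against its control.

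Around glutamine synthetase, 9 of 15 genes of glutamine, glutamate and 2-oxoglutarate fell at wilting, 1 rose and 5 did not pass, with a median of −0.98. The share called was 66.7%, against 27% of all probe sets. None of the 15 passed on day 1 or day 10. The plastid carriers that bring 2-oxoglutarate in and take glutamate out were both lower: DIT1 fell by 2.14 ± 0.14 (limma adjusted p = 1.43e-05) and DIT2.1 fell by 1.74 ± 0.11 (adjusted p = 1.3e-05). GLB1, the plastid PII protein that senses 2-oxoglutarate, fell by 1.95 ± 0.14 (adjusted p = 2.25e-05). GLU2, the lesser of the ferredoxin-dependent glutamate synthases in leaves, rose by 0.56 ± 0.11 (adjusted p = 0.00425). GLU1, the main leaf ferredoxin-dependent glutamate synthase, and GLN1;2 were picked for mention after their values were seen, as partners of GLN2 and of the other cytosolic isoforms: GLU1 fell by 1.51 ± 0.23 (adjusted p = 0.00139). GLN1;2 fell by 1.59 ± 0.43 (adjusted p = 0.0238), from 9.36 and 10.25 in controls to 8.97 and 7.45 in drought. The GLN1;2 call ended without control array 2 (−1.15, adjusted p = 0.144) or drought array 2 (−0.83, adjusted p = 0.069).

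Of 9 genes of asparagine, aspartate and alanine, 1 rose and 3 fell at wilting, or 44.4% against 27% of all probe sets. Their median was −0.204. ASN2 and ASN3, the asparagine synthetases that are not induced in darkness, had differences of −2.35 ± 0.27 (limma adjusted p = 0.000273) and −1.39 ± 0.15 (adjusted p = 0.000177), with drought arrays below controls for both. ASP1, the mitochondrial aspartate aminotransferase, fell by 1.26 ± 0.19 (adjusted p = 0.00114). ASP3, another aspartate aminotransferase, rose by 0.98 ± 0.31 (adjusted p = 0.0456), a call that ended without any of 11 arrays (adjusted p up to 0.151). The ASP3 value was 0.36 without drought array 1 and 1.59 without drought array 2.

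ASN1 belongs to the genes known to rise in darkness and sugar shortage. At wilting 3 of 8 other genes of that kind fell while none rose, with a median of −0.145. The share called was 37.5%, against 27% of all probe sets. DIN10, a raffinose synthase-like gene, fell by 3.70 ± 0.28 (limma adjusted p = 3e-05), from 10.39 and 10.19 to 6.57 and 6.62. BZIP63, a transcription factor of the low-energy response, fell by 3.44 ± 0.29 (adjusted p = 5.38e-05). DIN4, a subunit of the branched-chain keto acid dehydrogenase, fell by 0.56 ± 0.17 (adjusted p = 0.0419), a call that ended without any of 9 arrays (adjusted p up to 0.214). Of the 4 senescent leaf markers NAP and ORE1, transcription factors of leaf ageing, rose at wilting by 3.71 ± 0.61 and 4.02 ± 0.39 (adjusted p = 0.0019 and 0.000108), whereas SAG12 stayed at 3.24 in controls and 3.38 in drought. The mean of the 4 markers was 4.07 in controls and 6.18 in drought at wilting, 4.65 and 5.86 on day 10, and 3.89 and 4.34 on day 1. On day 10 NAP, at 2.39, and ORE1, at 2.34, did not pass (limma adjusted p = 0.195 and 0.0826). SAG12 and SAG13 measured −0.02 and 0.12 there. None of the 4 passed on day 1. The part of these markers in the nitrogen genes' values was not tested.

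Whether the drought effects themselves differed was tested for the 98 list genes as interaction contrasts in the same limma fit. Between day 10 and day 1 none differed, with a lowest adjusted p of 0.456, and 0% of all probe sets did. Between wilting and day 1, 20 of 98 differed, or 20.4%, against 12.5% of all probe sets. Between wilting and day 10, 21 of 98 differed, or 21.4%, against 12.3% of all. The largest in the first of these was BT2, at −3.44, and in the second BZIP63, at −3.17. Since the lists were chosen with earlier results of these data known, the shares of list genes are descriptions only.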

How the data were processed

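Expression in young leaves was measured on 12 arrays in 6 groups of 2. The deposited values are log2 expression values that the authors made with RMA in affy, per the submitters' processing notes; for their versions, and for the build behind the locus-based probe sets, the sources used here give nothing. Sorted values varied by 0.0501, 0.0586 and 0.0691 within the 3 sets of 4 arrays against 0.696 over all 12, hence separate normalisation. The 56 control probe sets were left out.

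Group means were fitted with limma (version 3.58.1, under R 4.3.3; functions lmFit, then eBayes; 6 residual and 2.78 prior degrees of freedom), two-sided, with Benjamini-Hochberg adjustment over the 21461 probe sets. The labels call the replicates biological, pools of 5 plants. Replicate numbers did not pair the arrays: deviations of same-numbered arrays correlated at 0.0302, 0.0623 and −0.494 on day 1, day 10 and at wilting. The fit was run on simulated arrays that had 1 normal SD for all probe sets and groups. That run therefore says nothing on spreads that differ between groups or genes, as they do here. The 10 genes and the 7 lists were chosen with earlier results of these data known. Named list genes are up to 3 called per list, direction and comparison by smallest adjusted p; the likeness lists take the 5 highest r among probe sets with a symbol. All 10 genes were found in a RefSeq table of locus tags, and names of 6 measured list genes could not be matched there, so those are given by locus or not named. Alternatives were cyclic loess, array weights, a filter on dim probe sets, trended and robust moderation, the 4 arrays of a comparison alone, a replicate block and leaving out each array.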

Additional observations from a re-analysis of the deposited data

Results flagged for a closer look

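For GLN1;4 the drought arrays lay above both controls on day 10 and below both on day 1 and at wilting. Its day 10 effect exceeded its day 1 effect by 2.013 log2 units, and its effect at wilting minus that on day 10 was −2.101. These differences between effects were not tested, since the gene was chosen on the same contrasts.

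The other genes given here come from the 27 named list genes. Their drought effects differed between samplings in the limma interaction test (adjusted p under 0.05 over all probe sets). Further list genes passed that test and are not given, such as NAGK, GLU1 and ICDH. All values are differences of log2 effects. The transporter NRT1.11 gave −2.4 for wilting minus day 1 and −2.522 for wilting minus day 10, and AMT1;1 gave −1.311 and −1.28. Among regulators, in the same order, NLP8 gave 1.824 and 0.9938, CIPK8 1.178 and 1.247, and AT3G60320 −1.959 and −2.395. BT2 differed between wilting and day 1 by −3.441, and AT1G25550 between wilting and day 10 by 1.086. Of the cofactor genes, CNX3 gave 1.057 and 1.005, UPM1 −1.825 and −1.28, and SIRB −0.5354 and −0.7955.

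In glutamate metabolism DIT2.1 gave −1.515 and −1.378, DIT1 −1.805 and −1.551, and GLB1 −2.211 and −1.841, with GLU2 at 0.8085 for wilting minus day 1. The asparagine synthetases ASN3 and ASN2 gave −1.21 and −1.256, and −2.069 and −1.603. ASP1 differed between wilting and day 1 by −1.1. DIN10 gave −2.325 and −2.215, and BZIP63 −2.269 and −3.17. DIN10 and BZIP63 were thus lower against control at wilting than in either moderate drought sampling.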

How the results depend on the processing

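The 10 genes' differences of over 0.5 log2 units in size kept their direction with cyclic loess, which changes the levels themselves. The other alternatives could not have reversed these differences. For each of them both drought levels lay on the same side of both control levels, so leaving out a single array cannot change the sign. Alternatives that refit unchanged levels, such as array weights, leave the difference as it was. Of the differences nearer 0, some changed sign when single arrays were left out. These were NIR1 and NRT1.1 on day 1, NRT1.1 on day 10, and CLC-A, GLN1;1 and ASN1 at wilting. NRT1.1 on day 10 also changed sign with cyclic loess. With the replicate block 0 of all probe sets passed on day 10, so 0 of the 10 did, against 3. At wilting 6 of the 10 passed, against 5, with GLN1;4 added, while 4510 of all probe sets passed, against 5797. NRT1.1 also passed at wilting with cyclic loess, with the dim filter and with trended and robust moderation. On day 1, 4 probe sets passed; the count was 165 with array weights, 187 with 4 arrays alone, 24 with trended and robust moderation, 1 with the replicate block and 1 to 31 with single arrays left out. For day 10 the 23 probe sets became 15 with cyclic loess, 158, 0, 49 and 0 under the same settings in that order, and 0 to 92 with an array left out. At wilting 5797 became 1575 with 4 arrays alone. List genes called on day 1 numbered 1 with array weights and 1 with 4 arrays alone; on day 10, 0 with cyclic loess, 3 with array weights, 0 with 4 arrays alone, 2 with trended and robust moderation, 0 with the replicate block and 0 to 3 with an array left out; and at wilting 12 of the 35 with 4 arrays alone. With the replicate block 12 list genes differed between wilting and day 1 and 12 between wilting and day 10; with an array left out the ranges were 12 to 29 and 8 to 28. Of the 27 named list genes 10 passed in every setting, 9 lost the call with 4 arrays alone and nowhere else, and 8 lost it elsewhere too. The 9 were NRT1.11, AMT1;1, CIPK8, BT2, CNX3, SIRB, GLU2, ASN2 and ASP1. Their limma adjusted p with 4 arrays alone ran from 0.0537 for SIRB to 0.11 for BT2. A crossed replicate block in the progressive set was chosen after seeing the data because its pairing correlation was negative. It called 32 probe sets on day 1, 352 on day 10 and 7224 at wilting. List genes called numbered 8 on day 10 and 46 at wilting, and 34 differed between wilting and day 10. Of the 10 genes 4 passed on day 10 and 7 at wilting in that fit. The cause of these changes was not tested.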

Other observations

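The glutamate dehydrogenases, which release ammonium from glutamate when carbon is short, were picked for mention after their values were seen. GDH2 fell by 0.98 ± 0.21 at wilting (limma adjusted p = 0.00741), and its day 10 value of −1.03 and day 1 value of −0.58 did not pass (adjusted p = 0.126 and 0.474). GDH1 was 0.69 on day 10 and −1.15 at wilting, neither of which passed (adjusted p = 0.616 and 0.0556). DIN10, which fell at wilting, measured −1.37 on day 1 and −1.48 on day 10, and neither passed (adjusted p = 0.2 and 0.117).

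Vascular markers were read along with other cell type lists, of which the guard cell and the shoot apex and flower markers had none past the threshold. All 4 phloem companion cell markers were above control in each comparison, with medians of 0.252 on day 1, 0.0857 on day 10 and 0.259 at wilting, and none passed the test. Of 5 xylem markers 2 rose at wilting, when 12.5% of all probe sets rose. These were IRX3 by 0.76 ± 0.14 and IRX1 by 0.91 ± 0.15 (limma adjusted p = 0.00309 and 0.00184), with a list median of 0.517. The xylem median was as large on day 1, at 0.531 with 4 of 5 above 0 and none past the threshold, and on day 10 it was −0.0987 with all 5 below 0. Their part in the nitrogen genes' values was not tested.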
